A study of Mus musculus with 19 samples.

Results

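Motor neurons and the other cholinergic neurons of the spinal cord depend on secreted neurotrophic factors. Which of them a neuron can respond to depends in part on the receptors it makes. The mRNAs of 10 neurotrophic factor receptors were followed here: Ret, Gfra2, Ntrk2, Ntrk3, Ngfr, Cntfr, Lifr, Il6st, Met and Igf1r. They were taken by symbol from a table of 50559 genes. All 10 were among the 15572 genes tested for change over the day and among the 17901 genes compared with the input.

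The mRNA was isolated from spinal cord of wild-type ChAT-Cre;RiboTag fx/+ male mice, 10 weeks old and of C57BL/6J background, kept under 12 h of light and 12 h of dark. RiboTag is an allele that adds a hemagglutinin tag to a ribosomal protein in cells that express Cre recombinase, so precipitating the tag recovers mRNA on the ribosomes of the cells that carry it. Cords were taken at ZT0, ZT4, ZT8, ZT12, ZT16 and ZT20 (Zeitgeber time, hours after lights on). Each of these 6 times was represented by 3 biological replicates, 18 immunoprecipitates in all. A single library of pooled input completed the set. Its label names cholinergic neurons, whereas the methods of the study describe input as homogenate before precipitation. All mice were labelled wild type and no treatment is named, so the groups differed by time of collection. Cre was driven by Chat, a gene of cholinergic cells, so motor neurons and other cholinergic cells of the cord, such as interneurons, were not separated.

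The libraries held 6302150 to 22406844 counts in the immunoprecipitates and 15239792 in the input. Of 7 markers of cholinergic neurons, 6 were enriched, which here means a mean at least 2-fold above the input with all 18 immunoprecipitates above it. The exception was Chat itself, which was above the input in 17. The markers of oligodendrocytes (7 genes), astrocytes (6), microglia (6), endothelial cells (4), Schwann cells (3), fibroblasts (4) and excitatory neurons (3) were all depleted, with median log2 ratios from -4.34 for astrocytes to -1.52 for excitatory neurons. For inhibitory neurons 3 of 4 markers were depleted. None of these markers was at 0 in all immunoprecipitates.

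Neurotrophic receptors fall into families. Ret is the signaling receptor tyrosine kinase for ligands of the GDNF family and binds them together with a GFRα co-receptor anchored in the membrane, of which GFRα2, the product of Gfra2, prefers neurturin. The Trk receptors TrkB (Ntrk2) and TrkC (Ntrk3) are the kinases for BDNF and neurotrophin-3, and the receptor encoded by Ngfr binds all neurotrophins and is a marker of embryonic and of injured motor neurons. Ciliary neurotrophic factor is bound by the non-signaling subunit CNTFRα (Cntfr) and signals through LIFRβ (Lifr) and the shared cytokine receptor subunit encoded by Il6st. Met and Igf1r encode the tyrosine kinase receptors for hepatocyte growth factor and insulin-like growth factor 1. Most of these factors are known to promote the survival of motor neurons.

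In the RefSeq annotation of GRCm38.p6 (mm10) all 10 are protein-coding genes. Ret lies at chr6:118151748-118197744 on the minus strand and Gfra2 at chr14:70890107-70979840 on the plus strand. Ntrk2 (chr13:58806472-59133970, plus strand), Ntrk3 (chr7:78179986-78581034, minus strand) and Ngfr (chr11:95568818-95587698, minus strand) encode the neurotrophin receptors. Cntfr (chr4:41657498-41697091, minus strand), Lifr (chr15:7090610-7197489, plus strand) and Il6st (chr13:112464070-112506860, plus strand) encode the subunits of the ciliary neurotrophic factor receptor. Met lies at chr6:17463349-17573980 and Igf1r at chr7:67952257-68233668, both on the plus strand. The counts were made per gene, so full-length and truncated forms of Ntrk2 and Ntrk3, which differ in whether they carry the kinase domain, cannot be told apart.

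Because the libraries form a time course, the 250 bases before each annotated start were searched on both strands for the letters that circadian transcription factors are known to bind. The promoter sequences are those of RefSeq on GRCm38.p6 and covered 7 of the 10 genes with 13 starts. Promoters of Ret, Ntrk3 and Gfra2 were not analysed here. The E-box CACGTG, the site of CLOCK and BMAL1, was found in Met and was present in 6.02% of 32851 promoters. The related E-box form CACGTT was found in Cntfr and in 3.85% of promoters, before 2 of the 6 annotated starts of Cntfr, both holding the same site. The hexamer AGGTCA, bound by REV-ERB, ROR and many other nuclear receptors, was found in Igf1r and Lifr and in 14.0% of promoters. The D-box TTATGTAA was found in none of the 7 genes and in 0.819% of promoters. The windows below are 30 bases of the strand of the gene, 5′ to 3′, with the motif in capitals. They lie at chr6:17463819-17463848 (Met, plus strand), chr4:41695679-41695708 (Cntfr, minus strand), chr7:67952159-67952188 (Igf1r, plus strand) and chr15:7129322-7129351 (Lifr, plus strand). The motifs stand 126 bases before the transcript start at 17463957 (Met), 221 before that at 41695475 (Cntfr), 86 before that at 67952257 (Igf1r) and 247 before that at 7129572 (Lifr). For Igf1r this is the start of the gene given above, whereas for Met, Cntfr and Lifr it is a transcript start inside the outer bounds of the gene. AACGTG and TGACCT are CACGTT and AGGTCA read on the other strand. A match describes the letters and is not evidence of binding.
Met: gggacgaacagaCACGTGctggggcgggta
Cntfr: gccaggcgcgggAACGTGccaaagcggagg
Igf1r: cgtgctcggcttTGACCTtcagcgagccgg
Lifr: cggTGACCTtgcaaggctggccgcgcgacc

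To determine which receptor mRNAs were concentrated on cholinergic neuron ribosomes, their levels in the 18 immunoprecipitates were set against the pooled input. Ret and Lifr stood well above the input, Gfra2 and Ngfr well below it, and the other 6 receptors were moderately below it in every library. With 1 input library there was no test. A gene was called enriched or depleted at a ratio of mean CPM (counts relative to library size, scaled over all 19 libraries) of at least 2-fold with all 18 immunoprecipitates on that side. By this rule 13.9% of the genes compared were enriched and 23.0% were depleted, against 2 enriched and 2 depleted among the 10 receptors. The median log2 ratio was -0.55 over the receptors and -0.08 over all genes. The input intervals below are exact 95% Poisson intervals and cover counting error only. In bulk RNA, fewer cells of a type and less RNA per cell cannot be told apart.

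Ret was the most enriched of the receptors. It ranged from 339 to 612 CPM in the 18 immunoprecipitates with a median of 447, and it stood at 122 CPM in the input (interval 117 to 127). The mean of 461 ± 78 CPM (SD, n = 18) was 3.79-fold above the input, a log2 ratio of 1.92. Of all genes compared, 95.5% had a lower ratio. The lowest library still lay 1.48 above the input on the log2 scale, so the ranges did not come near each other.

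Among the subunits of the ciliary neurotrophic factor receptor, Lifr was on the other side of the input from its partners. Lifr ranged from 205 to 294 CPM (median 234) against 79.2 in the input (75.2 to 83.3). Its mean of 236 ± 23.2 CPM (SD, n = 18) was 2.98-fold above the input, a log2 ratio of 1.58, and every library was above it. Cntfr, which encodes the ligand-binding subunit, ranged from 38 to 76.4 CPM (median 58) against 99.9 in the input (95.5 to 105). Its log2 ratio was -0.75, with single libraries from -1.39 to -0.39. Il6st, the subunit used by many cytokines in many cell types, ranged from 46.7 to 63.4 CPM (median 55.6) against 74.9 in the input (71.1 to 78.9), a log2 ratio of -0.43. Both Cntfr and Il6st were thus below the input in 18 of 18 libraries without reaching 2-fold.

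The neurotrophin receptors were all below the input in all 18 immunoprecipitates, by different amounts. Ngfr was the most depleted of the 10 receptors, at 1.05 to 4.88 CPM (median 2.98) against 15.3 in the input (13.6 to 17.2), 5.12-fold lower and a log2 ratio of -2.36. It was also among the most scarcely counted, with 10 to 79 counts in an immunoprecipitate. Ntrk2, a gene that astrocytes also express, ranged from 161 to 203 CPM (median 176) against 288 in the input (280 to 295), a log2 ratio of -0.70. Ntrk3 ranged from 29.6 to 56.3 CPM (median 42.7) against 60.5 in the input (57.1 to 64.2), a log2 ratio of -0.52. Its highest library had a log2 ratio of -0.11, close to the input. The 3 Schwann cell markers, a cell type that expresses Ngfr, had a median log2 ratio of -3.75, and their summed level was 36.5 to 90.9 CPM in the immunoprecipitates. The part of RNA from other cells in the Ngfr and Ntrk2 values was not tested.

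Gfra2 ranged from 8.74 to 18.5 CPM (median 13.4) against 27.6 in the input (25.2 to 30), 2.18-fold lower and a log2 ratio of -1.13. Ret and this co-receptor therefore moved to opposite sides of the input. Of the other co-receptors of Ret, Gfra1 and Gfra4 lay above the input, whereas the mean of Gfra3 lay below it, on the side of Gfra2. Gfra1, whose product is the preferred partner of GDNF, stood at 142 ± 22.5 CPM (SD, n = 18) against 52.9 in the input, a log2 ratio of 1.42. Gfra4 stood at 52.6 ± 4.59 CPM against 25.1, a log2 ratio of 1.07. Gfra3 stood at 0.864 ± 0.591 CPM against 1.22, a log2 ratio of -0.49, and its input value rested on 23 counts. Gfra3 and Gfra4 are named to complete the family and were not picked by the rule for named genes.

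The growth factor receptors Met and Igf1r were slightly below the input. Igf1r ranged from 22.1 to 35.4 CPM (median 29.9) against 39.9 in the input (37.1 to 42.9), a log2 ratio of -0.40. Met, a receptor of low level in these libraries, ranged from 1.38 to 2.63 CPM (median 1.82) against 2.91 in the input. Its input value rested on 55 counts, with an interval of 2.19 to 3.79 CPM that reached below the highest immunoprecipitates, and its log2 ratio was -0.59.

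**Figure D1:**
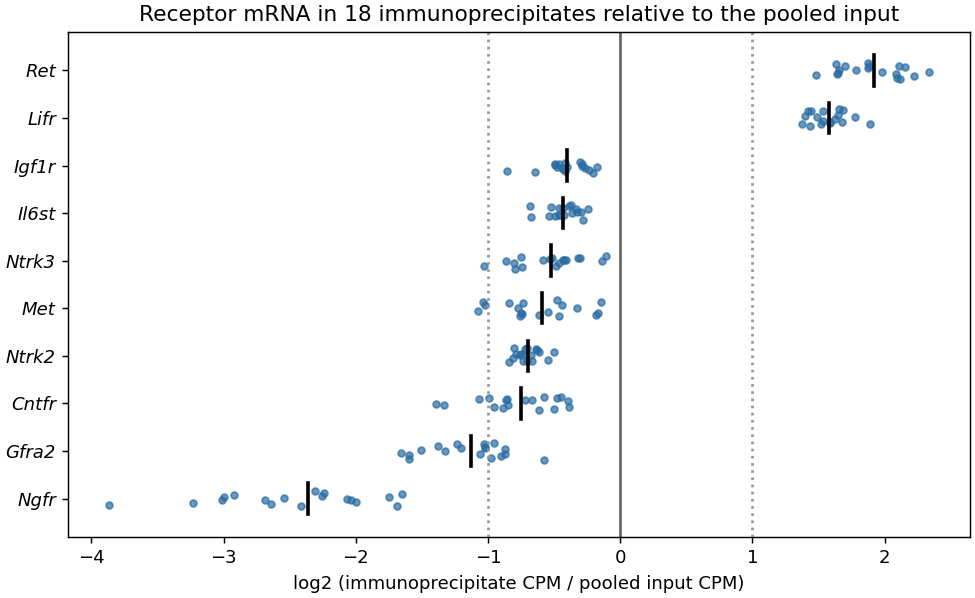
Log2 ratio of each immunoprecipitate to the pooled input for the 10 receptors (x axis; points, 18 libraries; black bar, ratio of the mean; dotted lines, 2-fold). Ret and Lifr lie to the right of 0 in every library and the other 8 receptors to the left, with Ngfr farthest at -2.36.

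To compare the receptors with one another, CPM was divided by the length of the longest annotated coding transcript. Ret was the most abundant receptor mRNA per length, at 83.5 ± 13.9 CPM per kb (SD, n = 18), and exceeded the next receptor in 18 of 18 immunoprecipitates without overlap of the ranges. Cntfr followed at 29.5 ± 5.8, Lifr at 24.2 ± 2.37 and Ntrk2 at 20 ± 1.26 CPM per kb. These 3 lay close together: Cntfr exceeded Lifr in 14 of 18 libraries and Lifr exceeded Ntrk2 in 18, although the ranges of neighbours overlapped. Cntfr was thus the second most abundant receptor per length and yet below the input. Il6st stood at 6.35 ± 0.518 CPM per kb, apart from its neighbours.

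Lower in the order were Gfra2 (3.6 ± 0.747 CPM per kb), Igf1r (2.63 ± 0.287) and Ntrk3 (2.12 ± 0.356). Gfra2 exceeded Igf1r in 16 libraries and Igf1r exceeded Ntrk3 in 17, so the order among them held in most but not all libraries. Ngfr (0.856 ± 0.317 CPM per kb) and Met (0.281 ± 0.0581) came last. Ngfr exceeded Met in 18 libraries, although their ranges overlapped. The order depends on which transcript is taken: with the mean length of the annotated coding transcripts, 5 receptors kept their rank (Ret, Ntrk2, Il6st, Ngfr and Met). Lifr then passed Cntfr (60.6 against 40.7 CPM per kb) and Ntrk3, whose longest coding transcript is 19703 bases, rose from rank 8 to rank 6 at 8.35 CPM per kb.

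**Figure D2:**
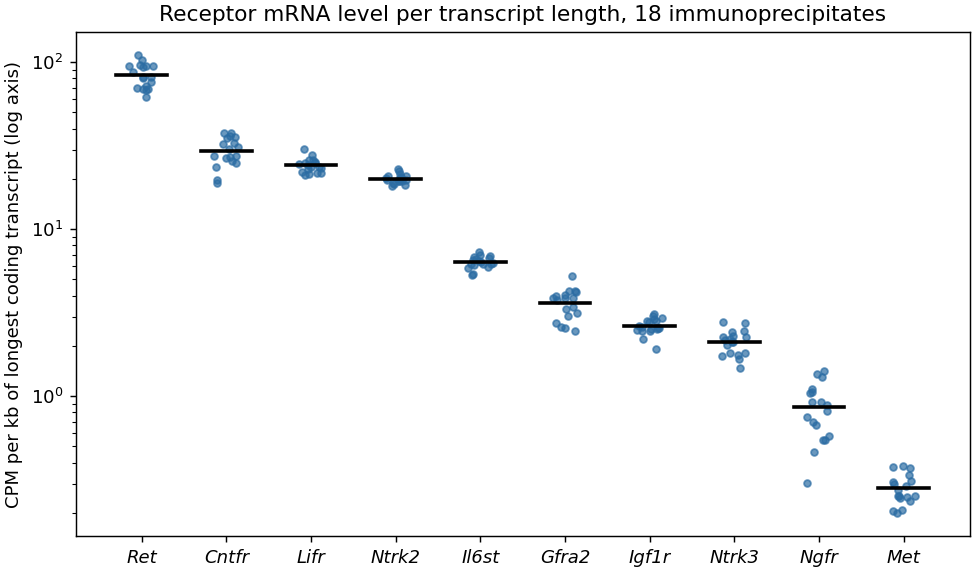
Level of each receptor mRNA in the 18 immunoprecipitates as CPM per kb of the longest coding transcript (y axis, log scale; points, libraries; bar, mean). Ret stands alone at the top at 83.5 CPM per kb, Cntfr, Lifr and Ntrk2 form a group from 20 to 29.5, and Met is lowest at 0.281.

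To determine whether receptor mRNAs on cholinergic neuron ribosomes changed over the day, the 6 time points were compared (CPM scaled over the 18 immunoprecipitates). Ret, Cntfr and Ntrk3 were lowest in the light period at ZT4 or ZT8 and highest at ZT0 or ZT16, whereas the means of Lifr, Ntrk2, Il6st, Met and Igf1r were highest at ZT8. These differences were modest, and no receptor passed the tests across the whole day in edgeR or JTK_Cycle.

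In the order of replicates 1, 2 and 3, Ret stood at 559, 477 and 526 CPM (ZT0), 442, 373 and 375 (ZT4), and 441, 336 and 380 (ZT8). Later in the day it stood at 413, 442 and 520 CPM (ZT12), 520, 601 and 379 (ZT16), and 517, 512 and 392 (ZT20). The 3 libraries of ZT8 were below the 3 of ZT0, a pair in which the libraries of 34.7% of all genes did not overlap. The replicates of ZT16 and ZT20 spread widely, replicate 3 being the lowest at both.

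Cntfr stood at 75.3, 60.2 and 65.2 CPM (ZT0), 46.9, 49.6 and 54.9 (ZT4), and 62.2, 39.3 and 37.8 (ZT8), again by replicate number. The later values were 53.3, 54.9 and 70 CPM (ZT12), 70.9, 72 and 54.2 (ZT16), and 75.6, 64.5 and 51.2 (ZT20). Replicate 1 of ZT8 stood apart from the other two libraries of that time and within the range of ZT0.

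For Ntrk3 the replicates were 48.4, 40 and 54.7 CPM (ZT0), 43.3, 29.2 and 34.4 (ZT4), and 41.5, 33 and 34.7 (ZT8). They were 41.7, 35.9 and 45 CPM (ZT12), 47.9, 53.9 and 42.6 (ZT16), and 44.7, 44.4 and 35.7 (ZT20). The 3 libraries of ZT16 were above the 3 of ZT8 (edgeR adjusted p = 0.0766), whereas those of ZT0 overlapped with ZT8. The share of all genes without overlap between ZT16 and ZT8 was not counted, but 31% had an unadjusted p under 0.05 in this pair.

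The Lifr values were 209, 221 and 242 CPM (ZT0), 249, 252 and 203 (ZT4), and 225, 291 and 269 (ZT8). They were 234, 242 and 213 CPM (ZT12), 227, 243 and 211 (ZT16), and 236, 227 and 206 (ZT20). The 2 highest libraries of the day were both at ZT8, but replicate 1 of that time lay among the other times.

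Like Ntrk3 and Lifr, the other 6 receptors passed none of the time tests in edgeR or JTK_Cycle. Ntrk2 was the steadiest, at 159 to 201 CPM with a coefficient of variation of 6.29% over the 18 libraries, and its means ran from 170 CPM at ZT12 to 182 at ZT8. Il6st (46.4 to 63.1 CPM, 8.19%) and Igf1r (21.9 to 35.2 CPM, 10.9%) were nearly as steady. For Il6st the means ran from 51.2 ± 4.2 CPM at ZT12 to 60 ± 3.19 at ZT8 (SD, n = 3), and for Igf1r from 27.4 ± 1.99 at ZT4 to 32.4 ± 3.55 at ZT8. Gfra2 varied more, by 20.8%, of which counting alone would give 7.87%, and its means ran from 10.8 ± 2.67 CPM at ZT4 to 14.4 ± 0.877 at ZT20.

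Ngfr varied most of the 10, with a coefficient of variation of 37%, of which counting alone would give 18%, and its means ran from 1.97 ± 0.417 CPM at ZT4 to 4.05 ± 0.565 at ZT16 (SD, n = 3). At ZT12 its libraries gave 4.49, 1.04 and 3.06 CPM, a spread nearly as wide as the 1.04 to 4.85 CPM of all 18 libraries. Met varied by 20.7%, which is what counting alone gives at its depth (20.8%), so at this depth the differences between its libraries could not be told from counting error.

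**Figure D3:**
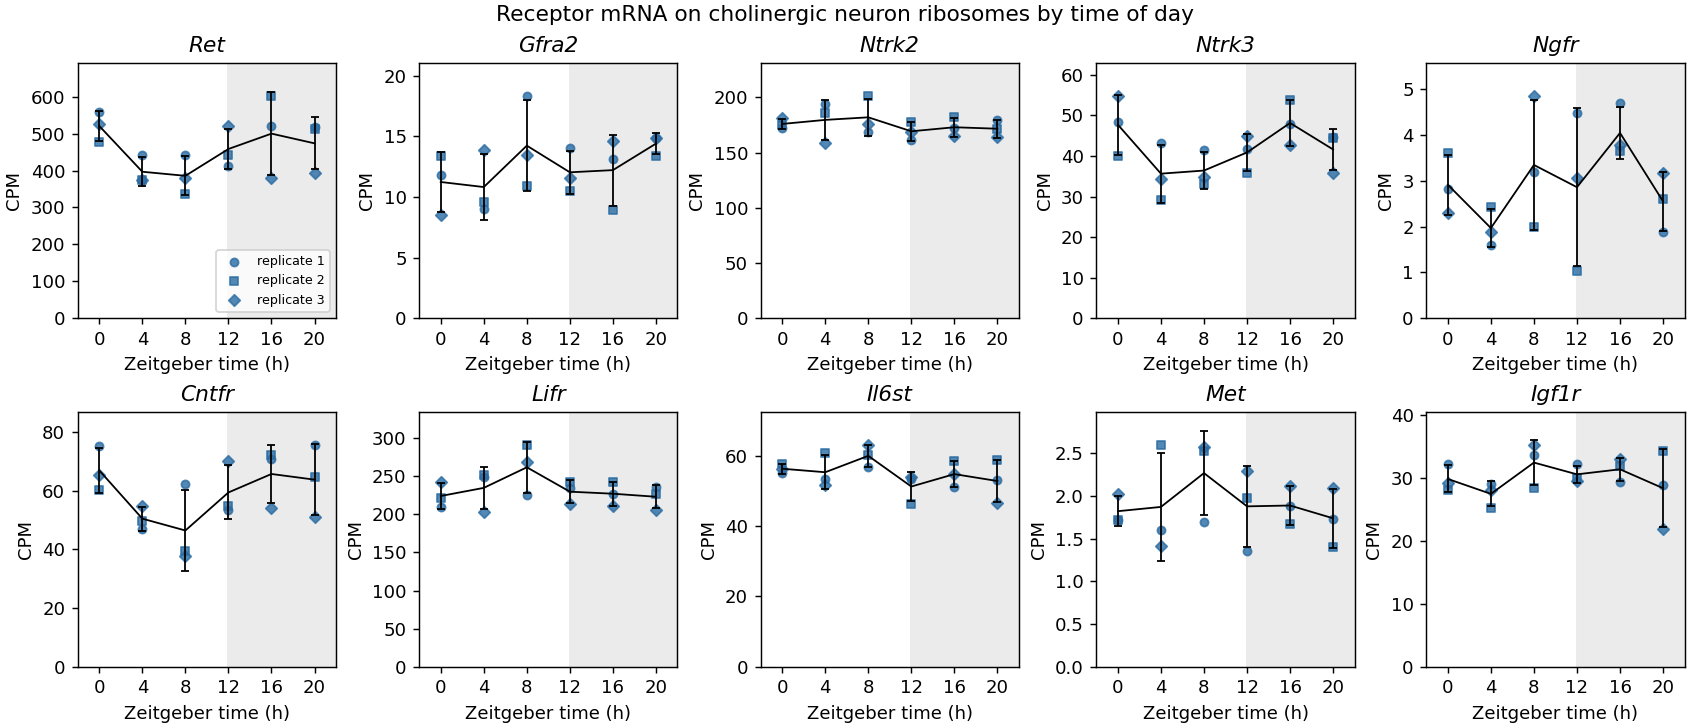
CPM of the 10 receptors (y axis, from 0) against Zeitgeber time in hours (x axis; grey, dark period; points, libraries with a marker for each replicate number; line and bars, mean ± SD, n = 3). Ret, Cntfr and Ntrk3 dip at ZT4 and ZT8, Lifr peaks at ZT8 at 262 CPM, and Ntrk2 stays between 159 and 201.

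Of the 10 receptors, 0 differed among the 6 time points by the quasi-likelihood F-test of edgeR with Benjamini-Hochberg adjustment over all genes tested, which called 6.74% of the genes. Ret, Ntrk3 and Cntfr were the 3 receptors with an unadjusted p under 0.05 (adjusted p of 0.2, 0.19 and 0.185), against 23.7% of all genes, and DESeq2 called 0 receptors and 2502 genes. A 24-h cosine fitted to the counts in edgeR called 0 receptors and 6.24% of genes. The same 3 receptors had an unadjusted p under 0.05, as had 26.7% of genes, and DESeq2 called 1 receptor, Cntfr, and 2312 genes. For Cntfr the fitted amplitude was 0.25 on the log2 scale with a peak at ZT19.1 (edgeR adjusted p = 0.0846). For Ret it was 0.19 with a peak at ZT19.2 (adjusted p = 0.125), and for Ntrk3 0.19 with a peak at ZT18.8 (adjusted p = 0.171). For Lifr the amplitude was 0.09 and the peak ZT7.87 (edgeR adjusted p = 0.347). JTK_Cycle is the rank test of rhythm that the study used, and the study reported many more rhythmic transcripts by it than were called here. The implementation run here called 0 receptors and 0.0385% of genes, 6 in number, after adjustment over all genes. With p adjusted within the gene alone it called 2463 genes and 0 receptors. The lowest p among the receptors by this test was 0.0735 before and 0.346 after adjustment over genes, for Ntrk3. Cntfr passed the test of the time points without replicate 1 of ZT8 (2454 genes called), and Ret without replicate 3 of ZT16 (2058 genes). The cosine test called Cntfr without replicate 1 of ZT8 (1120 genes) or replicate 3 of ZT12 (1610 genes), and Ret, Ntrk3 and Cntfr without replicate 3 of ZT20 (2668 genes). The counts over all genes hung on single libraries in both tests. They fell to 5 genes among the time points without replicate 3 of ZT8, and to 2 for the cosine without replicate 1 of ZT12.

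Between ZT0, the start of the light period, and ZT8, late in it, 2 receptors changed. Ret fell from 521 ± 41.3 to 386 ± 52.7 CPM (SD, n = 3), a log2 fold change of -0.43 with a standard error (SE) of 0.15 (edgeR adjusted p = 0.0482). Its 3 libraries of ZT8 were all below the 3 of ZT0. Cntfr fell from 66.9 ± 7.7 to 46.4 ± 13.6 CPM, a log2 fold change of -0.53 (SE 0.18, edgeR adjusted p = 0.0456), and its groups overlapped by 1 library. In this pair 18.0% of all genes were called, 9.02% with the lower level at ZT8, and the libraries of 34.7% of all genes did not overlap. Among the receptors only Ret had groups that did not overlap. The median log2 fold change was 0.11 over the receptors and 0 over all genes. The call of 2 in 10 receptors is therefore near the share of all genes called. That share was unstable too. The 2798 genes called became 274 without replicate 2 of ZT8, 639 without replicate 1 of ZT0 and 4010 without replicate 1 of ZT8, and 0 without all libraries numbered 2 or all numbered 3.

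Ntrk3 missed the threshold, with means of 47.7 ± 7.36 CPM at ZT0 and 36.4 ± 4.47 at ZT8 and a log2 difference of -0.40 (SE 0.16, edgeR adjusted p = 0.0822). Lifr had means of 224 ± 17 and 262 ± 33.7 CPM, a log2 difference of 0.22 (SE 0.11, edgeR adjusted p = 0.169). The other 6 receptors had log2 differences from 0.05 for Ntrk2 to 0.35 for Gfra2, with SE from 0.10 for Ntrk2 to 0.41 for Ngfr and edgeR adjusted p from 0.313 to 0.777. Thus 3 receptors were lower at ZT8 by sign and 7 higher. Ret and its enriched counterpart Lifr took opposite signs, but the difference between their changes was not tested.

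Both calls were close to the threshold of 0.05. Leaving out any 1 of the 18 libraries ended the call of Ret in 10 cases and that of Cntfr in 9, while both kept their sign. For Ret these were replicates 1 and 3 of ZT0, 2 and 3 of ZT4, 2 and 3 of ZT8, 1 and 2 of ZT12, 1 of ZT16 and 2 of ZT20, with log2 fold changes from -0.45 to -0.36 and edgeR adjusted p up to 0.201. For Cntfr they were replicates 1 and 3 of ZT0, 1 and 2 of ZT4, 2 and 3 of ZT8, 2 of ZT12, 1 of ZT16 and 2 of ZT20, with log2 fold changes from -0.55 to -0.41 and edgeR adjusted p up to 0.199. Leaving out all libraries of 1 replicate number ended the call of Ret in 3 of 3 cases (edgeR adjusted p from 0.0863 to 0.201). That of Cntfr ended in 2 of 3, without replicate 2 or replicate 3 (edgeR adjusted p from 0.19 to 0.257).

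Markers of cholinergic transmission also fell between ZT0 and ZT8. Chat, which encodes choline acetyltransferase, had 56.1 ± 11 CPM at ZT0 and 16.9 ± 7.71 at ZT8 (SD, n = 3), a log2 fold change of -1.74 (edgeR adjusted p = 0.0115). Slc18a3 and Slc5a7, the vesicular acetylcholine and the choline transporters, fell by 0.92 and 0.64 on the log2 scale (edgeR adjusted p of 0.0113 and 0.0158), and Ache, acetylcholinesterase, by 0.65 (adjusted p = 0.0292). Of the 7 markers these 4 were called lower at ZT8 and 0 higher. The motor neuron markers Mnx1, Isl1 and Prph were not called, with log2 differences of 0.10, -0.39 and 0.32 (edgeR adjusted p of 0.632, 0.153 and 0.0508). The summed level of the 7 markers, most of it Prph, was 4300 to 4770 CPM at ZT0 and 4230 to 4690 at ZT8. With the score of these 7 markers as a covariate, an alternative chosen after seeing the data, 0 receptors and 1 of all genes tested were called, and the ZT8 against ZT0 log2 difference was 0.09 for Ret and -0.02 for Cntfr. Since the markers themselves differed between the times, marker level and time cannot be told apart in that fit. The summed level of the 7 oligodendrocyte markers was 1830 to 2210 CPM at ZT0 and 1740 to 2000 at ZT8, and with their score as a covariate both receptors were called, among 2967 genes. In this comparison 1 of these oligodendrocyte markers was called lower at ZT8. Of the 4 inhibitory neuron markers 2 were called lower, and their summed level was 321 to 338 CPM at ZT0 and 246 to 299 at ZT8, without overlap. The part of inhibitory neuron RNA in the receptor changes was not tested.

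**Figure D4:**
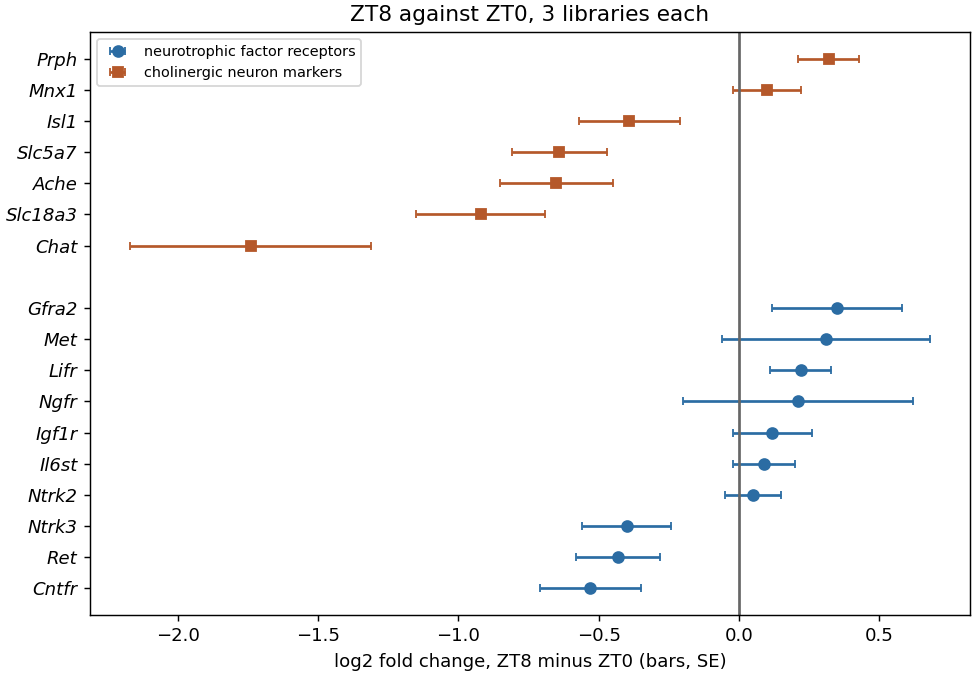
Log2 fold change of ZT8 minus ZT0 (x axis; bars, SE of the edgeR fit) for the 10 receptors (circles) and 7 cholinergic neuron markers (squares). Cntfr (-0.53), Ret (-0.43) and Ntrk3 (-0.40) lie left of 0, the other 7 receptors to the right, and Chat is farthest left at -1.74.

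The comparisons of ZT16 and of ZT20 with ZT8 share the libraries of ZT8 with the one above and so are not separate evidence of a low ZT8. At ZT16, Ret had a mean of 500 ± 112 CPM, a log2 difference from ZT8 of 0.38 (SE 0.15, edgeR adjusted p = 0.087). Cntfr had 65.7 ± 9.96 CPM, a difference of 0.50 (SE 0.18, edgeR adjusted p = 0.0583), and Ntrk3 48.2 ± 5.64 CPM, a difference of 0.41 (SE 0.16, edgeR adjusted p = 0.0766). None of the 10 receptors was called, and 3 had an unadjusted p under 0.05, whereas 16.9% of all genes were called and 31% had an unadjusted p under 0.05. DESeq2 called 1 receptor, Cntfr, and 3209 genes, against 2633 in edgeR. Without replicate 1 of ZT8 (3885 genes called), or without replicate 3 of ZT16 (3409 genes), Ret, Ntrk3 and Cntfr were called in this pair, and without replicate 3 of ZT20 (2601 genes) Cntfr was. Without replicate 2 of ZT16 the genes called fell to 72.

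At ZT20, against ZT8, the log2 difference was 0.45 for Cntfr (SE 0.18, edgeR adjusted p = 0.147), 0.30 for Ret (SE 0.15, adjusted p = 0.245), 0.19 for Ntrk3 (SE 0.16, adjusted p = 0.514) and -0.23 for Lifr (SE 0.11, adjusted p = 0.224). edgeR called 0 receptors and 0 genes (0%) in this pair, with 22.3% of genes and 1 receptor, Cntfr, at an unadjusted p under 0.05. DESeq2 called 0 receptors but 1114 genes. Without replicate 1 of ZT8 edgeR called Cntfr, among 2320 genes.

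The ligands of these receptors were scarce in the immunoprecipitates. Of 18 ligand genes 13 could be compared with the input, of which 1 was enriched and 4 were depleted (13.9% and 23.0% of all genes compared), with a median log2 ratio of -0.31. Nrtn, which encodes neurturin, the ligand of GFRα2, was the enriched one, at 3.99 ± 1.56 CPM (SD, n = 18) against 1.96 in the input, from 37 counts. It rose from ZT0 to ZT8, a log2 fold change of 1.14 (SE 0.37, edgeR adjusted p = 0.038), but was not called among the 6 time points (edgeR adjusted p = 0.24). Leaving out libraries was not run for the genes of this and the following lists. Bdnf, the ligand of TrkB, stood at 6.04 ± 1.24 CPM against 6.56 in the input, and Igf1, the ligand of the Igf1r product, at 3.54 ± 0.975 against 6.19. Cntf, a product of Schwann cells and astrocytes, was lower in the immunoprecipitates than in the input (2 ± 0.543 against 10.4 CPM, log2 ratio -2.38). Among ligands with at least 100 input counts, Igf2 had the lowest ratio, at 5.04 ± 3.27 against 51.3 CPM (log2 ratio -3.35). Of the 9 ligands tested, it was the 1 that differed among time points (edgeR adjusted p = 0.0258), against 6.74% of all genes. The part of RNA from other cells in the Igf2 values was not tested.

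Of 16 other receptors and co-receptors, 3 were enriched and 3 depleted (13.9% and 23.0% of all genes), with a median log2 ratio of -0.49. Of the 15 tested, 6 fell and 1 rose from ZT0 to ZT8, when 9.02% of all genes fell and 18.0% changed either way. Gfra1 was among those that fell, from 159 ± 5.01 to 120 ± 5.39 CPM (SD, n = 3), a log2 fold change of -0.41 (SE 0.13, edgeR adjusted p = 0.0377). At ZT16 it stood at 161 ± 33.6 CPM, a log2 fold change of 0.43 (edgeR adjusted p = 0.0298) against the same ZT8 libraries. Among the 6 time points Gfra1 was not called (edgeR adjusted p = 0.111). Ret and this co-receptor thus had nearly the same fold change between ZT0 and ZT8, in the same libraries. Ncam1, an alternative partner of the GFRα proteins, fell from 168 ± 13.9 to 118 ± 13.8 CPM (log2 fold change -0.51, edgeR adjusted p = 0.009), and its log2 ratio to the input was -0.93. Il11ra1, a receptor that also signals through the Il6st product, rose from 25.6 ± 2.61 to 52.9 ± 8.74 CPM (log2 fold change 1.05, edgeR adjusted p = 0.00519). Its value is less certain, since the mouse genome can hold a near-identical copy. Sorcs2 and Sorcs3, members of the sortilin family, fell by 0.70 and 0.67 on the log2 scale (edgeR adjusted p of 0.0306 and 0.0272). Among the 6 time points Ncam1 and Il11ra1 were called (edgeR adjusted p of 0.0387 and 0.0292), whereas Sorcs2 and Sorcs3 were not (0.0845 and 0.0713). Igf2r, which clears IGF2, had a log2 ratio to the input of 1.11 and Insr, the insulin receptor, of -1.02.

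Of 36 adaptors and effectors, 35 were measured, 6 were enriched and 11 depleted (13.9% and 23.0% of all genes), with a median log2 ratio of -0.04. From ZT0 to ZT8, 4 fell and 5 rose, against 18.0% of all genes called either way. Stat3, the transcription factor downstream of the Lifr and Il6st products, was enriched at 229 ± 11.5 CPM (SD, n = 18) against 73 in the input (log2 ratio 1.65). Bex3, which encodes a protein that binds the Ngfr product, was also enriched (490 ± 78.8 against 137 CPM, log2 ratio 1.84). Plcg1, the phospholipase recruited by Trk receptors, and Gab1, the docking protein of the Met product, were among the lowest, with log2 ratios of -2.74 and -2.99. Among the genes called over time, Pik3ca, a catalytic subunit of phosphoinositide 3-kinase, rose from ZT0 to ZT8 by a log2 fold change of 0.60 (edgeR adjusted p = 0.00926), Bex3 by 0.50 (adjusted p = 0.0166) and Mapk3, the kinase ERK1, by 0.46 (adjusted p = 0.0155). Sh2b1, an adaptor of Trk receptors, fell by 0.66 on the log2 scale (edgeR adjusted p = 0.0129). Among the 6 time points Pik3ca was called (edgeR adjusted p = 0.0325), whereas Bex3, Mapk3 and Sh2b1 were not (0.102, 0.0883 and 0.0569).

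Of 18 feedback inhibitors, 0 were enriched and 3 depleted (13.9% and 23.0% of all genes), with a median log2 ratio of -0.18. Lrig1, which restrains Ret and Met, and Dusp6, a phosphatase of ERK, were depleted with log2 ratios of -1.81 and -1.78, while Socs5 and Spry4, the latter an inhibitor of Ras signaling, had the highest ratios of the list among genes with at least 100 input counts (0.64 and 0.43). In the comparison of ZT8 with ZT0 Socs5, of the family that suppresses cytokine signaling, was the 1 member called, against 18.0% of all genes. It rose from 115 ± 6.94 to 192 ± 28.2 CPM (SD, n = 3), a log2 fold change of 0.73 (SE 0.12, edgeR adjusted p = 0.00519), and it also differed among the 6 time points (adjusted p = 0.0145).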

How the data were processed

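Stranded poly(A) RNA-seq libraries of 18 RiboTag immunoprecipitates and 1 pooled input were processed by the authors with STAR 2.7.5 and RSEM on mm10, per the labels, and all samples were prepared on the same day. The table deposited by the authors holds expected counts for each gene, not normalized, and 1.9% to 3.68% of its values per library were not whole. Reads shared by similar genes are divided by a model. The methods of the study name an Ensembl annotation of mm10.

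Expected counts were rounded. Genes were kept with filterByExpr and scaled by TMM in edgeR 4.0.16 (R 4.3.3, limma 3.58.1), with Benjamini-Hochberg adjustment at 0.05. The spread of each gene was estimated over all 18 immunoprecipitates together, and again for the cosinor. The common coefficient of variation over genes was 19.2% in the fit of the time points. Tests were the quasi-likelihood F-test of the 6 time points, of a 24-h cosinor and of the pairs ZT8 and ZT0, ZT16 and ZT8, and ZT20 and ZT8. Standard errors were derived from the F statistic. JTK_Cycle used periods of 20, 24 and 28 h on log2 CPM (prior count 2). The input comparison had no test. The labels name biological replicates, and p-values measure the spread between them.

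Members, gene lists and tests were chosen with earlier results of these data known. From each pathway list, up to 4 genes with the lowest adjusted p among those called, and the 2 highest and 2 lowest input ratios at 100 or more input counts, were named. Alternatives were DESeq2 1.42.0, other scalings, filters of 10 counts in total or 1 count, a replicate block, marker score covariates, a 1.5-fold limit, mean coding transcript length and leaving out libraries. Shared deviation of same-numbered libraries of different times was mixed (45 pairs, correlations from -0.519 to 0.585, median 0.0748, 18 pairs over 0.1). The numbers were not treated as pairs in the main fits, and the replicate block was run as an alternative. The functions were tested on simulated data.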

Additional observations from a re-analysis of the deposited data

How the results depend on the processing

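Each group held 3 libraries, and counting limits Met and Ngfr. Ret and Cntfr at ZT8 against ZT0 were called (2 receptors) under 5 of the alternatives that kept all libraries, namely library totals, DESeq2, a total of 10 counts, the replicate block and the oligodendrocyte score. With DESeq2 size factors in edgeR the number was 1 (Cntfr), and with the cholinergic neuron score, added after seeing the data, it was 0, in a fit that called 1 gene in all. Keeping genes with 1 count gave 3 receptors in this pair (Ntrk3 added), 3 among the time points, 2 for the cosinor, 3 for ZT16 against ZT8 and 1 for ZT20 against ZT8, while the genes called in these tests rose to 3091, 2767, 2349, 3003 and 1641. DESeq2 gave 1 for the cosinor and 1 for ZT16 against ZT8 (Cntfr in both). The replicate block gave 1 for ZT16 against ZT8 (Cntfr, edgeR adjusted p = 0.0479), and the oligodendrocyte score 2 (Ret and Ntrk3). The replicate block changed no other call. The JTK_Cycle count was 0 receptors under all alternatives run, with 355 genes under the replicate block and 0 to 751 without 1 library. The input rule gave 7 receptors at 1.5-fold (adding Ntrk2, Cntfr and Met) and 6 with library totals (adding Ntrk2 and Cntfr), which shifted the median log2 ratio of all genes by -0.33. Mean coding transcript length kept 5 of 10 ranks.

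With the cholinergic neuron score the sign turned for Ret (ZT8 against ZT0 0.09, ZT16 against ZT8 -0.19, ZT20 against ZT8 -0.12), for Ntrk3 (ZT16 against ZT8 -0.01, ZT20 against ZT8 -0.12), for Cntfr (ZT16 against ZT8 -0.04) and for Met (ZT8 against ZT0 -0.14). The cause was not tested. Leaving out libraries gave 0 to 3 receptors for ZT8 against ZT0, 0 to 3 for ZT16 against ZT8, 0 to 1 for ZT20 against ZT8, 0 to 3 for the cosinor, 0 to 1 among the time points and 4 to 4 for the input. The ZT8 against ZT0 log2 difference then ran from -0.05 to 0.09 for Ntrk2 and from -0.31 to 0.64 for Ngfr, both crossing 0.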
